A study of Mus musculus with 12 samples.

Results

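The 10 serotonin receptor genes described here are *Htr1a*, *Htr1b*, *Htr1d*, *Htr1f*, *Htr2a*, *Htr2c*, *Htr3a*, *Htr4*, *Htr6* and *Htr7*. They were taken by name, with earlier results of these data known, among 21938 protein-coding genes of the GENCODE vM21 annotation on mm10. Histone marks were mapped in cells of the cerebral cortex of heterozygous *Gad67-GFP* pups at postnatal day 2, in which GFP labels GABAergic cells. Fluorescence-activated sorting gave GFP+ cells (cortical interneurons, CINs) and GFP- cells (non-CINs, a mixture of glutamatergic neurons, glia and other cortical cells). All samples come from this 1 line and age, each from tissue pooled over several litters, and the labels used here do not give the sex of the pups. Native ChIP, in which chromatin is not cross-linked, was done with antibodies to H3K27ac and H3K27me3 in 2 replicates of each population, giving 8 lists of broad peaks called against matched input. For each gene, peaks were counted from 5 kb upstream of the transcription start site (TSS) to the gene end. The covered length is the bp of that window under peaks. The strength of a peak is given as its percentile, the rank of its fold enrichment over input among all peaks of its own list.

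Serotonin acts through receptors of several families. Most are G protein-coupled: the HTR1 receptors signal through Gi/o and lower cAMP, the HTR2 receptors signal through Gq and phospholipase C, and HTR4, HTR6 and HTR7 signal through Gs and raise cAMP. HTR3A is the exception, a subunit of a pentameric cation channel opened by serotonin, and in the cortex *Htr3a* is known as a marker of interneurons that arise in the caudal ganglionic eminence. H3K27ac is found at active promoters and enhancers, and H3K27me3 is laid down by the Polycomb repressive complex PRC2 at silenced or poised genes.

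The H3K27ac lists held between 46040 and 62505 peaks and the H3K27me3 lists between 36662 and 45081. Read numbers were not analysed here, so depth is described only by these lists, and a missing peak means that none was called. Of 8 CIN marker genes, 6 had a longer H3K27ac cover in both CIN lists than in both non-CIN lists, and none had the reverse. Of 6 markers of microglia, endothelium and pericytes, 3 were higher in non-CINs and 0 in CINs. The 6 glial markers had 3 genes higher in non-CINs and 1 higher in CINs. The 8 glutamatergic markers did not separate, with 2 genes higher in each population and a summed H3K27ac cover of 13960 and 6876 bp in the CIN lists against 9996 and 11668 bp in the non-CIN lists. With 2 replicates on each side, an exact two-sided permutation test cannot give *p* below 0.333. A gene was therefore called higher in one population when both of its values lay above both values of the other, and the members' counts are read against the share of all 21938 genes called by the same rule.

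H3K27me3 was the mark that most of these receptor genes carried. Of the 10 genes, 9 had an H3K27me3 peak in all 4 lists of that mark, against 21.1% of protein-coding genes. The remaining gene, *Htr3a*, had no H3K27me3 peak in any list, as had 59.2% of all genes. Of the receptor genes outside this list, *Htr3b* and *Htr5b* had a peak in all 4 lists, *Htr5a* lacked one in CIN replicate 1, and *Htr2b* had none. A peak lay over the TSS itself in all 4 lists in *Htr1a*, *Htr1b*, *Htr1d* and *Htr2a*, 4 of 10 genes against 4.56% of all genes. In 6 of 10 genes (*Htr1a*, *Htr1b*, *Htr1d*, *Htr2c*, *Htr4* and *Htr6*) H3K27me3 was present in all 4 lists and H3K27ac in none, a combination found in 5.68% of all genes. The median covered length over the 10 members was 3461.5 and 4329 bp in the CIN lists against 2943.5 and 3786.5 bp in the non-CIN lists, where the median over all genes was 0. The windows of the members were also longer, with a median of 49.8 kb against 22.4 kb, and the part of window length in these shares was not tested.

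**Figure D1:**
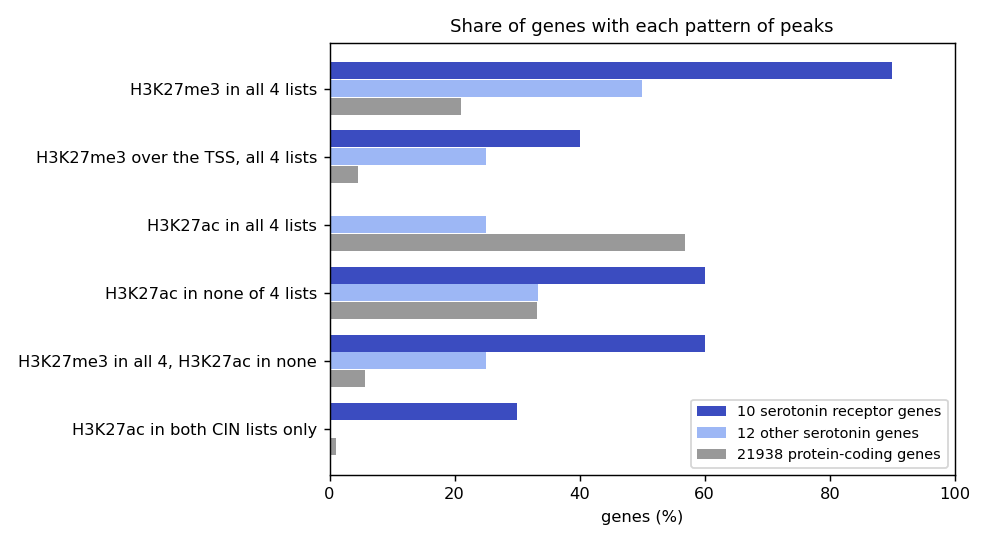
Bars give the percentage of genes (horizontal axis) with each pattern of peaks among the 10 serotonin receptor genes, 12 other genes of serotonin synthesis, transport, breakdown and reception, and 21938 protein-coding genes. H3K27me3 in all 4 lists was found at 9 of the 10 receptor genes and at 21.1% of all genes, and H3K27ac in all 4 lists at 0 of the 10 and at 56.8% of all genes.

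Among the Gi/o-coupled receptors, the 3 compact genes carried H3K27me3 over the TSS in both populations. *Htr1a* (chromosome 13, 105443639–105448122, plus strand) encodes the autoreceptor of serotonin neurons that is also found on cortical neurons. Its H3K27me3 cover was 3259 and 4477 bp in replicates 1 and 2 of CINs, against 3528 and 4391 bp in those of non-CINs, so the 2 populations overlapped. The strongest peak stood at percentiles 92.9, 93.9, 93.9 and 93.1 of these lists, and a stretch of 2824 bp from position −297 to 2526 relative to the TSS was shared by all 4. *Htr1b* (chromosome 9, 81628291–81633828, minus strand), whose product is a presynaptic receptor on axon terminals, was covered over 5284 and 7416 bp in the CIN replicates against 5528 and 7091 bp in the non-CIN replicates, a mean of 60.1% of its window and the largest share among the 10 genes. Again the groups overlapped, and replicate 2 was the higher in each population. An antisense transcript, *D430036J16Rik*, lies in the same window, so the mark cannot be assigned to one of the 2 genes. *Htr1d* (chromosome 4, 136423524–136444398, plus strand), encoding another presynaptic receptor, had 3002 and 4291 bp in the CIN replicates against 3493 and 3747 bp in the non-CIN replicates, with 2396 bp around the TSS shared by all 4 lists. None of these 3 genes had an H3K27ac peak in its window in any list.

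*Htr1f* (chromosome 16, 64924729–65105854, minus strand), a long gene for a Gi/o-coupled receptor, had the least H3K27me3 shared between lists of the Gi/o group. Peaks covered 4484 and 1440 bp in the CIN replicates against 1937 and 216 bp in the non-CIN replicates. The CIN values were the higher within each replicate number, but CIN replicate 2 was below non-CIN replicate 1, so the gene was not called for either population (exact permutation *p* = 0.667, n = 2 in each group). Both CIN lists had a peak over the TSS and neither non-CIN list did. The non-CIN peaks began 481 and 781 bp after the TSS, and the stretch shared by all 4 lists was 216 bp long. The strongest H3K27me3 peak of the window stood at percentiles 87.3 and 56.4 in the CIN replicates, then 60.9 and 37.6 in the non-CIN replicates. With only peaks of −log10 *q* of at least 4 kept, the number of members with H3K27me3 in all 4 lists fell from 9 to 8, without *Htr1f*. The RefSeq promoter of *Htr1f* (mm10, chr16:65105735-65106034, minus strand, 250 bases before to 50 after the RefSeq start) is shown because the peaks over it were in the CIN lists only. The RefSeq start lies 70 bp downstream of the GENCODE TSS used for the windows, and the peak over the TSS in CIN replicate 2 ended 68 bp after that TSS. The promoter is printed with each CpG dinucleotide in capitals, 13 in all, against a median of 7 over 32851 RefSeq promoters.
*Htr1f* promoter: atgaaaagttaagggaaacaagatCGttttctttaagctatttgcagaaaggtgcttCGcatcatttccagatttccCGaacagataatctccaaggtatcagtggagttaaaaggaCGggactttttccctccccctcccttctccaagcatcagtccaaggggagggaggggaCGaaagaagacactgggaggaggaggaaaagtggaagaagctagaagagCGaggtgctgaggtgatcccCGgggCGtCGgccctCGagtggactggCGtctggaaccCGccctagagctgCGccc

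**Figure D2:**
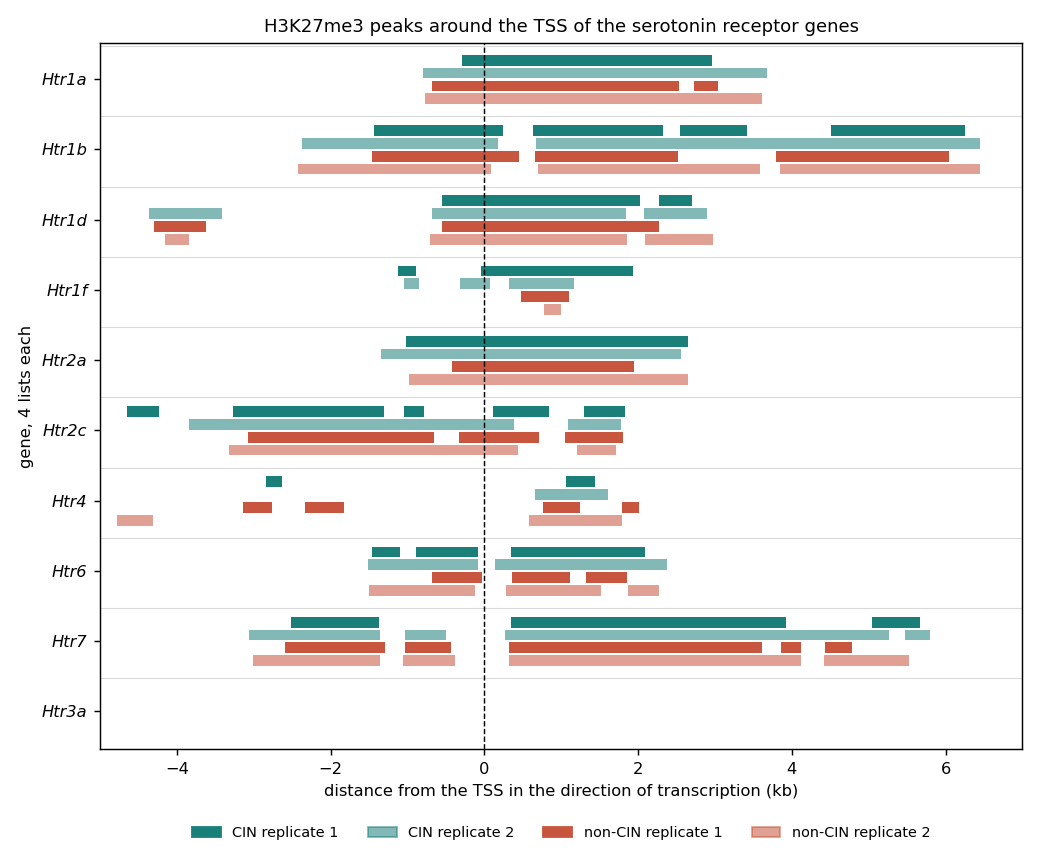
H3K27me3 peaks drawn to scale around the TSS (dashed line) of each serotonin receptor gene, with distance in kb along the direction of transcription and 1 row for each of the 4 lists. The peaks of *Htr1a*, *Htr1b*, *Htr1d* and *Htr2a* cross the TSS in all 4 lists, those of *Htr6* and *Htr7* lie on both sides of it, and *Htr3a* has none.

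Of the Gq-coupled receptor genes, *Htr2a* and *Htr2c* carried H3K27me3 at their 5′ ends, while *Htr2b*, which is not among the 10 members, had no H3K27me3 peak in any list. *Htr2a* (chromosome 14, 74640840–74709494, plus strand), the cortical receptor through which serotonergic hallucinogens act, had 3664 and 3906 bp covered in the CIN replicates against 2372 and 3826 bp in the non-CIN replicates. The 2 groups overlapped, since non-CIN replicate 2 exceeded CIN replicate 1, although the CIN value was the higher within each replicate number. The strongest peaks ranked at percentiles 95.3 and 96.0 in CINs, and at 93.1 and 96.6 in non-CINs. *Htr2c* (X chromosome, 146962513–147197277, plus strand), whose transcript is edited by adenosine deamination, had 3911 and 4927 bp in the CIN replicates against 4204 and 4257 bp in the non-CIN replicates, mostly upstream of the TSS, with a peak over the TSS in 3 of the 4 lists. The longest stretch shared by all 4 lists was 1767 bp and ended at position −1304 from the TSS. The gene hosts several small RNA genes in its window, but no H3K27ac peak was called within 100 kb of it in any list.

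In the Gs-coupled group no list had a peak over the TSS, and at *Htr7* and *Htr6* the mark lay on both sides of it. *Htr7* (chromosome 19, 35958734–36057507, minus strand), a receptor linked to circadian and thalamic functions, had the greatest covered length of the 10 genes, 5901 and 8085 bp in the CIN replicates against 6348 and 7248 bp in the non-CIN replicates, and the highest percentiles, from 96.5 to 97.9. One shared stretch of 3262 bp began 345 bp after the TSS and another of 1144 bp ended at position −1368. *Htr6* (chromosome 4, 139061108–139075570, minus strand), a receptor located on primary cilia of neurons, had 3164 and 4367 bp in the CIN replicates against 2394 and 3020 bp in the non-CIN replicates. Here both CIN values were above both non-CIN values. An antisense transcript, *Gm45533*, lies within the upstream part of its window. *Htr4* (chromosome 18, 62324204–62496577, plus strand), a receptor known from the gut and the forebrain, had short, scattered peaks covering 2949 and 941 bp in the CIN replicates against 2217 and 1672 bp in the non-CIN replicates, and the 4 lists shared only 186 bp. Its means were 1945 ± 1419.9 bp in CINs and 1944.5 ± 385.4 bp in non-CINs (SD, n = 2), so the populations did not separate.

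Between the populations, the H3K27me3 cover of most of these genes overlapped. Covered length was higher in CINs in 1 of 10 genes, *Htr6* (3765.5 ± 850.6 bp in CINs and 2707 ± 442.6 bp in non-CINs, mean ± SD, n = 2, exact permutation *p* = 0.333, the smallest possible), against 2.99% of all genes, and higher in non-CINs in 0 of 10, against 4.53%. The call at *Htr6* was lost when only peaks with −log10 *q* of at least 4 were kept, where the mean was still 699 bp higher in CINs, and within 5 kb on each side of the TSS, where it was 812 bp higher, against 1058.5 bp in the full window. The count also depended on single lists, and the rule is easier to pass with 1 list on a side. It became 7 without CIN replicate 1 (12.9% of all genes), 3 without CIN replicate 2 (7.16%), 2 without non-CIN replicate 1 (4.80%) and 2 without non-CIN replicate 2 (9.64%). Without CIN replicate 2, 5 genes were higher in non-CINs (14.0% of all genes), and without CIN replicate 1, 1 gene was (6.25%). Within 5 kb on each side of the TSS, 2 genes (*Htr1f* and *Htr2a*) were higher in CINs (2.85% of all genes) and 1 (*Htr4*) in non-CINs (3.12%). When the populations were compared within each replicate number, 3 genes (*Htr1f*, *Htr2a* and *Htr6*) were higher in CINs (6.81% of all genes) and 0 in non-CINs (10.3%). Within each replicate number the non-CIN list covered more of the genome (39.4 against 34.5 Mb and 49.8 against 44.2 Mb), and when covered length was expressed as a share of its list, 6 genes (*Htr1a*, *Htr1b*, *Htr2a*, *Htr2c*, *Htr6* and *Htr7*) were higher in CINs, against 6.19% of all genes, and 0 were higher in non-CINs, against 3.82%.

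**Figure D3:**
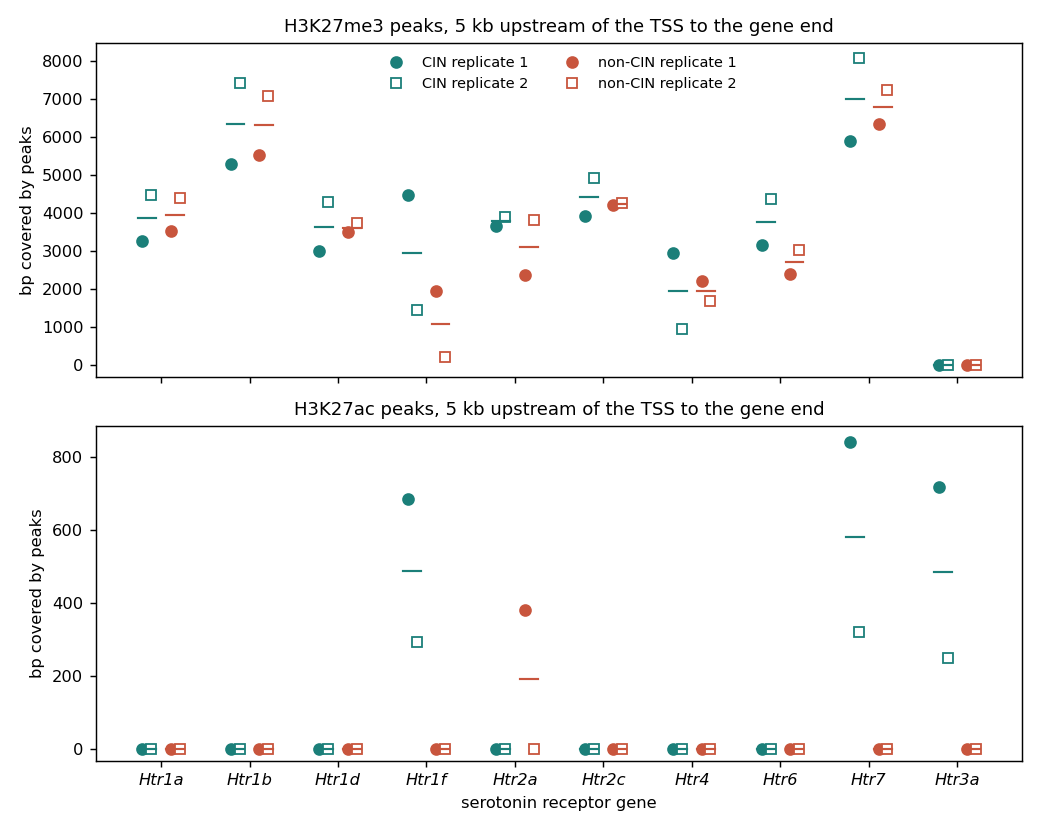
Covered length in bp (vertical axes) of H3K27me3 (top) and H3K27ac (bottom) in the window of each serotonin receptor gene. Points are the single lists and horizontal lines the means of 2 replicates. H3K27me3 values of the populations are intermixed at most genes, and H3K27ac is above 0 in both CIN lists and 0 in both non-CIN lists at *Htr1f*, *Htr7* and *Htr3a*.

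H3K27ac peaks were scarce in the same windows. None of the 10 genes had one in all 4 lists, where 56.8% of protein-coding genes did, and none had one over the TSS in all 4 lists, against 27.3%. In 6 of 10 genes no list had an H3K27ac peak, against 33.1%. The 4 with a peak were *Htr1f*, *Htr3a* and *Htr7*, in CINs, and *Htr2a*, in 1 non-CIN list. At *Htr2a* the peak was 380 bp long, at percentile 17.2 of non-CIN replicate 1, and lay 202 to 581 bp after the TSS inside the H3K27me3 peak of that list. It did not recur in replicate 2. Covered length was higher in CINs in 3 of 10 genes against 12.1% of all genes, and higher in non-CINs in 0 of 10 against 12%. All 3 had H3K27ac in both CIN lists and in neither non-CIN list, a pattern of 0.971% of all genes. The reverse pattern was found in 0 of the 10 and in 0.383% of all genes. These 2 shares were computed for the main setting only. The windows of *Htr1f* and *Htr7* were long, 186.1 and 103.8 kb against a median of 22.4 kb over all genes, and the part of window length was not tested. With lists of equal peak number and at −log10 *q* of at least 4 the call at *Htr3a* was lost, which left *Htr1f* and *Htr7* (13.1% and 13.0% of all genes were called under these settings). Without non-CIN replicate 2, *Htr2a* was called higher in non-CINs, as were 26.2% of all genes. Within 5 kb on each side of the TSS only *Htr3a* was called, against 11.2% of all genes, since the sites in *Htr1f* and *Htr7* lie outside. In sorted populations, a mark carried by fewer cells and a weaker mark in every cell cannot be told apart.

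At *Htr1f* and *Htr7* the acetylated sequence was a short intronic site far from the promoter. In *Htr1f*, peaks covered 683 and 291 bp in the CIN replicates and 0 in both non-CIN replicates (487 ± 277.2 bp, SD, n = 2, exact permutation *p* = 0.333). The region found in CINs only, in the sense that it recurred in both CIN replicates with no peak in the non-CIN list of that number, was 291 bp long (chromosome 16, 65029998–65030288), centred 75711 bp after the TSS. Its peaks stood at percentiles 62.4 and 43.4, and the nearest H3K27me3 peak of any list was 24021 bp away. In *Htr7*, peaks covered 841 and 318 bp in the CIN replicates and 0 in both non-CIN replicates (579.5 ± 369.8 bp, SD, n = 2, exact permutation *p* = 0.333). Its CIN-only region of 318 bp (chromosome 19, 36002797–36003114) lay 54552 bp after the TSS, at percentiles 72.5 and 44.6, and the nearest H3K27me3 peak was 19148 and 5939 bp away in the CIN replicates and 19435 and 48869 bp away in the non-CIN replicates. Thus both genes carried H3K27me3 at the 5′ end in both populations and a distant intronic H3K27ac peak in CINs. Both sites kept a peak in both CIN lists at −log10 *q* of at least 4, but neither met a reciprocal overlap of 50% between the merged regions of the replicates.

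The 300 bases at the centres of these 2 regions are printed from mm10, plus strand, because they carry the acetylation found in CINs only. Capitals mark matches on either strand to 3 short cores, TAATTA (bound by DLX proteins), CTTTGT (SOX) and CTGTCA (MEIS). No match overlapped another. Both sites were picked for display after their values were seen.
*Htr1f* intron, chr16:65029993-65030292: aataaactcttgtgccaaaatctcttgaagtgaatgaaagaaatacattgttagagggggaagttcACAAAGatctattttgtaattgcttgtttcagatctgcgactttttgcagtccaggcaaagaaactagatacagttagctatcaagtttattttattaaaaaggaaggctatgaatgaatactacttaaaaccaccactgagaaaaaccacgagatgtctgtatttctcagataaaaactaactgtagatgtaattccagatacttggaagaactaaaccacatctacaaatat
*Htr7* intron, chr19:36002806-36003105: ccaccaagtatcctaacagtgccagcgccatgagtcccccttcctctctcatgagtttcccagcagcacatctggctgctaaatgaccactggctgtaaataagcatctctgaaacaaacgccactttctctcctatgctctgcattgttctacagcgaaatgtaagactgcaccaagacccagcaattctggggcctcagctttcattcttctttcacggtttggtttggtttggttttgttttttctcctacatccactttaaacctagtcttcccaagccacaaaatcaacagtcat
The *Htr1f* site held 1 SOX core and no DLX or MEIS core, and the *Htr7* site held none of the 3. Among 4181 CIN-only H3K27ac regions on the assembled chromosomes, 15.5% held the DLX core in a window of this length, 37.6% the SOX core and 27.7% the MEIS core, and among 27742 regions present in all 4 lists these shares were 6.04%, 26.2% and 19.5%.

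*Htr3a* (chromosome 9, 48899213–48911099, minus strand) was the only member with no H3K27me3 peak in its window. Its H3K27ac cover was 717 and 248 bp in the CIN replicates and 0 in both non-CIN replicates (482.5 ± 331.6 bp, SD, n = 2, exact permutation *p* = 0.333). The peaks were weak. In CIN replicate 1 they lay at positions −330 to −37 and 794 to 1216 from the TSS, at percentiles 24.1 and 4.70, and in CIN replicate 2 a peak lay 95 to 342 bp after the TSS, at percentile 14.8. No peak covered the TSS, and the peaks of the 2 replicates did not overlap each other. None remained at −log10 *q* of at least 4. Just outside the window, 5162 bp before the TSS, non-CIN replicate 1 also had an H3K27ac peak, of 247 bp at percentile 42.5, and CIN replicate 1 had one of 575 bp at percentile 48.0 over the same place. With the window extended to 10 kb upstream, a choice made after seeing this peak, *Htr3a* was still called higher in CINs, but the nearest values were 248 bp in CIN replicate 2 and 247 bp in non-CIN replicate 1. An antisense transcript, *Gm32335*, overlaps the 3′ part of the gene.

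The stronger acetylation was downstream of the gene. A CIN-only region of 1728 bp (chromosome 9, 48894992–48896719) began 2493 bp past the 3′ end of *Htr3a* and overlapped an exon at the 5′ end of *Gm32335*. Its peaks stood at percentiles 89.4 and 75.3 in CINs, with −log10 *q* of 11.22 and 9.94, and neither non-CIN list had a peak there. H3K27me3 peaks overlapped it in 3 lists, of 573 bp in CIN replicate 2 (percentile 60.9), 245 bp in non-CIN replicate 1 (percentile 27) and 247 bp in non-CIN replicate 2 (percentile 5.30). Both marks were therefore called over this region in CIN replicate 2. A second CIN-only region of 414 bp (chromosome 9, 48814612–48815025), in an intron of the neighbouring gene *Zbtb16* and 84187 bp past the end of *Htr3a*, stood at percentiles 66.0 and 25.6. Both regions also met the reciprocal overlap of 50%. The 300 bases at their centres follow from mm10, plus strand, with the same cores in capitals.
Region 3′ of *Htr3a*, chr9:48895706-48896005: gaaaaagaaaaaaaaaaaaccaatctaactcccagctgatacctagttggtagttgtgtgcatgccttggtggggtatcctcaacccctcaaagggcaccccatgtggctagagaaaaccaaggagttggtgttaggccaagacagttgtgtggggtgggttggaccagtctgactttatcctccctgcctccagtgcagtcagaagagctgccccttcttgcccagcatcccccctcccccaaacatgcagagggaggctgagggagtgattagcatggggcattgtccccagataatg
Region in *Zbtb16*, chr9:48814669-48814968: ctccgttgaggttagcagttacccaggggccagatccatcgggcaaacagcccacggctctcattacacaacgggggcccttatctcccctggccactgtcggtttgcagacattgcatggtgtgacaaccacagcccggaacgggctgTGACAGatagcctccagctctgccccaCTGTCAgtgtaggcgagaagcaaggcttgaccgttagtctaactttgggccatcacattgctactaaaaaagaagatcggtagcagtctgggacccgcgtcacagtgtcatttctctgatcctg
The centre of the stronger region held none of the 3 cores, and that of the weaker region held 2 MEIS cores.

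**Figure D4:**
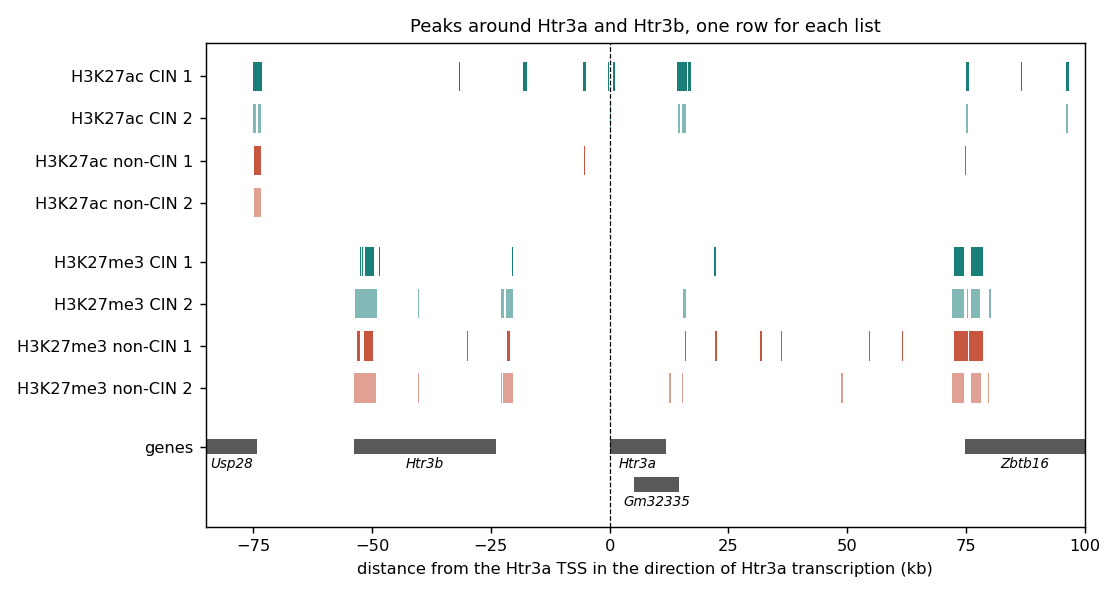
Peaks of the 8 lists around *Htr3a* and its paralogue *Htr3b*, with distance from the *Htr3a* TSS in kb along the direction of *Htr3a* transcription, 1 row for each list and genes as grey bars. The H3K27ac peaks just past the 3′ end of *Htr3a* are in the 2 CIN rows only, the H3K27me3 peaks over *Htr3b* are in all 4 rows of that mark, and the body of *Htr3a* has no H3K27me3 peak.

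*Htr3b*, the paralogue that encodes the partner subunit of the channel, lies next to *Htr3a* on the same strand, with its 3′ end at −23.91 kb from the *Htr3a* TSS. It had H3K27me3 in all 4 lists, over 2744 and 4697 bp in the CIN replicates against 2857 and 4864 bp in the non-CIN replicates, and the strongest peak stood between percentiles 91.9 and 95.2. Its only H3K27ac peak was one of 225 bp in CIN replicate 1. The 2 neighbouring channel genes thus differed in H3K27me3 in every list. By percent of the window covered over the 8 lists, the genes nearest to *Htr3a* were *Itga10*, *4931409K22Rik*, *Odaph*, *Ibsp* and *Synpr*, at Euclidean distances of 0.723 to 1.03 percentage points. The first 4 had no peak of either kind in the non-CIN lists and no H3K27me3 in CINs. This follows largely from the choice by distance, since *Htr3a* has no cover in these lists. Of 5 markers of the interneuron lineage to which *Htr3a* cells belong (*Prox1*, *Nr2f2*, *Sp8*, *Vip* and *Reln*), 3 had more H3K27ac cover in both CIN lists than in both non-CIN lists, against 12.1% of all genes, and 0 the reverse, against 12%. *Nr2f2* and *Vip* were not called. Unlike *Htr3a*, 4 of the 5 had an H3K27me3 peak in each list, as had 6292 to 6886 of the 21938 genes. H3K27me3 cover was called higher in either population at 0 of the 5.

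Within 100 kb of the members, 4 CIN-only H3K27ac regions were found, 1 at *Htr1f*, 1 at *Htr7* and 2 at *Htr3a*, so that 3 of 10 genes had such a region in reach, against 24.9% of all genes. There was 1 non-CIN-only region, of 162 bp in an exon of *Luzp1*, 97415 bp past the end of *Htr1d* (chromosome 4, 136541814–136541975). It stood at percentiles 46.6 and 3.40 of the non-CIN lists. That is 1 of 10 genes against 24.0% of all genes. Nothing is read from these counts about the members, and they moved with the rule. Requiring a reciprocal overlap of 50% left 2 CIN-only regions, both at *Htr3a*, and 0 non-CIN-only regions. Without replicate 1 of both populations there were 8 and 4, and without replicate 2 there were 14 and 7. The neighbourhoods differed widely in acetylation. Within 100 kb of *Htr1b* and *Htr2c* no H3K27ac peak was called in any list, while *Htr6* had between 7 and 12 peaks and *Htr1a* between 4 and 9.

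Among the other 12 serotonin genes the pattern was mixed. They include 4 further receptor genes, of which *Htr3b* and *Htr5b* had H3K27me3 in all 4 lists, *Htr5a* had it in 3 (0 and 1711 bp in the CIN replicates against 655 and 1939 bp in the non-CIN replicates) and *Htr2b* in none. H3K27me3 was present in all 4 lists in 6 of the 12, and over the TSS in all 4 lists in *Htr5b*, *Slc6a4* (the serotonin transporter) and *Slc18a2* (a vesicular monoamine transporter). *Slc6a4* had 5364 and 9285 bp in the CIN replicates against 5143 and 7651 bp in the non-CIN replicates, with no H3K27ac in any list. H3K27ac was present in all 4 lists in 3 of the 12, *Slc18a1*, *Ddc* and *Maoa*. *Maoa*, which encodes a monoamine-degrading enzyme, had 2823 and 3369 bp of H3K27ac in the CIN replicates against 3462 and 4396 bp in the non-CIN replicates, higher in both non-CIN lists, and no H3K27me3. The window of *Slc18a1* overlaps *Atp6v1b2* on the other strand, so its peaks cannot be assigned to one of these genes. Higher H3K27ac cover in CINs was called at *Slc18a1*, *Slc18a2* and *Tph2*, 3 of 12 against 12.1% of all genes. At *Tph2*, the neuronal tryptophan hydroxylase, it was 2314 and 736 bp in the CIN replicates against 345 and 0 bp in the non-CIN replicates. H3K27me3 cover was also called higher in CINs at 2 of the 12, *Slc18a1* (283 and 434 bp against 0 in both non-CIN replicates) and *Tph2* (377 and 405 bp against 331 and 0 bp), against 2.99% of all genes.

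RefSeq promoter sequences on mm10 were matched for 8 of the 10 members, all but *Htr3a* and *Htr4*. *Htr7*, with 46 CpG dinucleotides in 300 bases, and *Htr6*, with 29, were above the upper quartile of all RefSeq promoters (20). No H3K27me3 peak as deposited covered the TSS of either gene. The nearest one lay 266 to 345 bp from the TSS of *Htr7* but only 32 to 124 bp from that of *Htr6*. *Htr1a*, *Htr1b*, *Htr1d* and *Htr2a*, with the mark over the TSS in all 4 lists, had 7, 11, 7 and 6. *Htr2c*, with a peak over the TSS in 3 lists, had 5, and *Htr1f*, with one in 2 lists, had 13. Among these 8 promoters the 2 with the most CpG dinucleotides were thus those with no deposited H3K27me3 peak over the TSS in any list. This is a description of 8 genes with no test, and at *Htr6* it depends on short gaps between peaks. Joining peaks within 500 bp would carry the mark over the TSS of *Htr6* in all 4 lists, but not over that of *Htr7*. A DLX core was found in 1 of the 8 promoters, that of *Htr2a*, and in 5.29% of all RefSeq promoters. The SOX core was found in none of the 8 and in 18.7% of all, and the MEIS core in *Htr1d* and *Htr2a* and in 19.2% of all.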

How the data were processed

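Per the labels and the study's methods, reads were aligned to mm10 with BWA 0.7.15, filtered at a mapping quality of 30 and used for MACS2 broad peak calling per replicate against matched input (*q* and broad thresholds of 0.01, 200 bp extension, no local background). The labels give MACS2 2.2.7 and the methods another version. The lists deposited by the authors give each peak's position, score, fold enrichment (a ratio of ChIP to input), and its *p* and *q* as −log10. The authors' score was not used. The 4 input samples have no peak list and were not analysed here. Depth is unknown, so no interval for counting error is given.

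Covered bp and peak percentiles were computed from the lists as deposited with Python 3.11.15, NumPy 2.4.6, SciPy 1.17.1 and pysam 0.24.0. Interval operations were tested on simulated data. To find regions of 1 population, peaks within 500 bp were merged and an overlap of 1 bp was required. The 2 populations were compared with exact permutation tests (two-sided, n = 2), on samples that the study describes as biological replicates. Named were all 10 members, a list of 12 other serotonin genes, marker lists, every region found in 1 population within 100 kb, and the 5 genes nearest to *Htr3a*. Other genes were named only where they overlap these. Members and lists were chosen with earlier results of these data known. Alternatives changed the peak threshold, window, list size, scaling, overlap, merging gap, distance and replicates.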

Additional observations from a re-analysis of the deposited data

How the results depend on the processing

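With 2 replicates a side the exact permutation test cannot give *p* below 0.333, and a missing peak may reflect depth, which is unknown. H3K27me3 in all 4 lists held at 9 of 10 genes, or 8 at −log10 *q* of at least 4, and H3K27ac in all 4 lists at 0, under all alternatives run. The number with longer H3K27me3 cover in CINs (1) became 0 at −log10 *q* of at least 4, beside 1.81% of all genes. It became 2 within 5 kb on each side of the TSS, 6 when scaled by list length, and 2 to 7 with 1 library left out. The number higher in non-CINs (0) became 1 within 5 kb of the TSS and 0 to 5 with 1 library left out. Without CIN replicate 2, 3 genes were higher in CINs and 5 in non-CINs, beside 7.16% and 14.0% of all genes. For H3K27ac, the number higher in CINs (3) became 1 within 5 kb of the TSS, and 2, without *Htr3a*, both at −log10 *q* of at least 4 and with lists of equal peak number, and the number higher in non-CINs (0) was 0 to 1 with 1 library left out. The mean H3K27ac difference at *Htr3a* (482.5 bp) was 0 at −log10 *q* of at least 4 and 124 bp with equal lists. CIN-only regions (4) became 2 with a reciprocal overlap of 50%, 12 within 250 kb and 8 to 14 with 1 replicate left out. Non-CIN-only regions (1) became 0 at −log10 *q* of at least 4, with a reciprocal overlap of 50% and within 50 kb, 3 within 250 kb, 2 with equal lists and 4 to 7 with 1 replicate left out. Apart from what each rule does by construction, the cause was not tested.

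The labels do not say that a replicate number marks a shared batch. Deviations of same-numbered samples correlated at 0.328 for H3K27ac and 0.564 for H3K27me3 across genes. With the replicate block, in which populations are compared within each number, H3K27me3 was higher in CINs in 3 genes (*Htr1f*, *Htr2a* and *Htr6*) and H3K27ac in 3, beside 6.81% and 19.9% of all genes. Without the block, 5 CIN-only regions and 1 non-CIN-only region were found.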
